A study of Homo sapiens with 20 samples.

Results

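PINCR, PURPL, LINC-PINT and PANDAR are 4 long non-coding RNAs (lncRNAs) that are known to be induced by p53. They were taken by their GENCODE gene names from the 27697 genes tested, of which 10346 were lncRNAs and 17351 mRNAs. All 4 were among the genes tested, PANDAR through a single count in the vehicle samples. In the deposited files they were represented by 19 transcripts, against 197 in GENCODE release 44. PINCR had 1 of 1 transcript, PURPL 6 of 126, LINC-PINT 11 of 69 and PANDAR 1 of 1.

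The samples were 20 cultures of NGP, a human neuroblastoma cell line, with 10 replicates per condition. Nutlin samples received nutlin-3, a small molecule that binds MDM2, as a racemic mixture at 8 µM, and vehicle samples received the solvent ethanol. The length of the treatment is not given in the sources used here, and every sample is of the same cell line, so that spread between replicates is spread between cultures of NGP. Poly(A) RNA was sequenced as stranded paired-end libraries, in which an lncRNA without a poly(A) tail would be missed.

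The p53 protein is a transcription factor that is held at a low level by MDM2, a ubiquitin ligase. Nutlin-3 occupies the p53-binding pocket of MDM2, so that p53 accumulates and its target genes are transcribed. The targets include mRNAs for cell-cycle arrest, DNA repair and apoptosis as well as lncRNAs, some of which feed back on p53 or shape the choice between arrest and death.

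Libraries held from 14455477 to 19532971 estimated read pairs, and the median was 17819527 for vehicle and 15675936 for nutlin. The 7 neuroblastoma markers looked at, among them HAND2 and MYCN, summed to 6002 to 6849 CPM (counts scaled by library size) in the vehicle samples and to 5367 to 5799 CPM in the nutlin samples. Most of the sum was MYCN, with means of 3799 and 2865 CPM. After nutlin 4 of the 7 were called lower, HAND2 and MYCN among them, and 2 higher, TH (LFC 0.62) and GATA3 (0.40). Over all genes tested, 32.3% were called higher and 26.5% lower. The 10 markers of fibroblasts, white blood cells and endothelium summed to 14.2 to 19.9 CPM and 41.9 to 52.7 CPM, respectively. Of these 10, 4 were called higher and 2 lower after nutlin, beside the same 32.3% and 26.5% of all genes tested. None was at 0 in every library. The called-higher markers were COL1A1 (8.91 ± 1.35 to 35.2 ± 3.50 CPM, SD, n = 10), CD68 (LFC 2.29), PECAM1 (1.54) and LYZ (1.14). The 2 called lower were LUM (LFC −1.7) and VWF (−0.83). The 4 not called were COL1A2, DCN, PTPRC and CDH5. Their means were 0.2025, 0.627, 0.0847 and 0.0448 CPM in the vehicle samples. In the nutlin samples these means were 0.230, 0.781, 0.155 and 0.0248 CPM. The part of the 10 markers in the results was not tested.

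The members lie on 4 chromosomes, and their sequences set what the counts can resolve. Coordinates, starts of transcripts included, are those of GENCODE 44 on GRCh38. The files were made with an earlier annotation, and all 6 PURPL transcripts as well as LINC-PINT-204, LINC-PINT-205, LINC-PINT-209 and LINC-PINT-211 have another length there (1610 bases in the files against 10301 for PURPL-204), so that their starts and ends as quantified may differ. PINCR spans chrX:43176994-43226598 on the plus strand and is an intergenic lncRNA of 2228 bases in the files. PURPL spans chr5:27217714-27497871 on the plus strand. The 6 PURPL transcripts of the files all begin between 27472246 and 27472286. LINC-PINT spans chr7:130791264-131110176 on the minus strand. PANDAR is a single exon on the minus strand at chr6:36673621-36675126. It lies 1.3 kb from the outermost GENCODE boundary of CDKN1A, at 36676460, which is transcribed in the other direction. The RefSeq start of CDKN1A is further away, at 36678714.

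Promoter windows of 300 bases, from 250 bases before to 50 bases after a RefSeq start, are shown for PURPL and LINC-PINT because both the induction and the transcript make-up of these genes are described from here on. The windows are read 5′ to 3′ on the strand of the gene on GRCh38.p14. Capitals mark matches to the p53 half-site consensus, of which p53 binds a pair. The PURPL window is chr5:27472042-27472341, plus strand. The first LINC-PINT window, chr7:130913261-130913560, minus strand, lies at the start inside the gene that is used by LINC-PINT-206. The second, chr7:131109876-131110175, minus strand, lies at the outer end of the gene around a RefSeq start at 131109925, and is wholly downstream of the first base of LINC-PINT-211 at 131110176.
PURPL promoter: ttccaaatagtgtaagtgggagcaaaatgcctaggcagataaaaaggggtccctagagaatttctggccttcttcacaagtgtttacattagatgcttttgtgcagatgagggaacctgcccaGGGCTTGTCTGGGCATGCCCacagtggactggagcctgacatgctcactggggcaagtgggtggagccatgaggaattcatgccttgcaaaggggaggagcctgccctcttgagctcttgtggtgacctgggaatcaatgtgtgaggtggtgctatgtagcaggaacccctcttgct
LINC-PINT inner promoter: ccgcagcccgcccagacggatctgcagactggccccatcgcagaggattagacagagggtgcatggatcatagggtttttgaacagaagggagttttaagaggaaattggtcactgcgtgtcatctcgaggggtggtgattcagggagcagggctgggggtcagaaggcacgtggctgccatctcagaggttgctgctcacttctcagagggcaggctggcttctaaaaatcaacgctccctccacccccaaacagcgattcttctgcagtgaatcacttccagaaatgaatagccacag
LINC-PINT outer window: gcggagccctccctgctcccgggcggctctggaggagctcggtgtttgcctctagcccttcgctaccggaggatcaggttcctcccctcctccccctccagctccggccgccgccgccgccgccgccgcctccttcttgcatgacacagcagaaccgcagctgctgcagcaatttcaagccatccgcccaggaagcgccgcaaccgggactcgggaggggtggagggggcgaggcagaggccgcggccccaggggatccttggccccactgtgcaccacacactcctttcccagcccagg

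The PURPL window held 2 half-sites on end, GGGCTTGTCT beginning 127 bases before the start and GGGCATGCCC beginning 117 bases before it. Both strands were searched, and half-sites were paired when at most 13 bases lay between them. Of 34796 different promoter windows, 2315 (6.65%) held at least 1 half-site and 10 (0.03%) a pair. Besides PURPL, the genes with a pair whose counts were tested were DDB2 (LFC 2.47), LNCTAM34A (5.42), PTCHD4 (1.05), DYNC2H1 (−0.98) and MCC (−0.20), where LFC is the log2 fold change of nutlin against vehicle. Of the 6 genes, 4 were called higher and 2 lower, where 32.3% of all genes tested were called higher and 26.5% lower. DYNC2H1 averaged 1.58 CPM and was only just called (SE 0.415, edgeR adjusted p = 0.043). A link between the pair and a direction was not tested. None of the 4 LINC-PINT windows held a half-site, and neither did the windows of CDKN1A and MDM2. A match of letters is a description and not a binding site. PINCR and PANDAR had no entry in the promoter table.

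A stretch of the PINCR transcript is shown because its read pairs can be assigned to no other gene. kallisto assigns read pairs by 31-base words that they share with transcripts. Of the 2198 such words of PINCR-201, 0 occurred in another gene, and its first 240 bases are given. Of the 1476 words of PANDAR-201, 88.62% occurred in another gene.
PINCR-201, bases 1 to 240: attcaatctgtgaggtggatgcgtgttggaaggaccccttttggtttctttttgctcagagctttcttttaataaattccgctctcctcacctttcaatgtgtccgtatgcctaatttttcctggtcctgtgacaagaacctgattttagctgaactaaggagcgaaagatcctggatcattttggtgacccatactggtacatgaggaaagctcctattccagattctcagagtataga

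All 4 lncRNAs were more abundant after nutlin. Each was called significantly differentially expressed (SDE) by edgeR's quasi-likelihood F-test at 5% FDR, where 32.3% of all genes tested and 32.0% of the lncRNAs tested were called higher. The 4 were chosen with earlier results of these data known, so that their number beside these shares is a description. In 3 of the 4, every nutlin sample was above every vehicle sample, a separation held by 8.32% of the lncRNAs tested. In bulk RNA, more cells with a transcript and more transcript per cell cannot be told apart.

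PINCR, an lncRNA reported to favour the induction of arrest genes by p53, was close to absent in the vehicle samples. Its estimated counts there were 0 at the lowest, 1.5 at the median and 6 at the highest, and 2 of 10 libraries had none. After nutlin they were 186, 256 and 292. The lowest nutlin sample (replicate 4) was far above the highest vehicle sample (replicate 11), and no samples overlapped. The mean level went from 0.126 ± 0.141 to 16.3 ± 1.81 CPM (SD, n = 10), with an LFC of 7.01 ± 0.182 (SE; edgeR adjusted p = 5.95e-24). Summed over libraries, 18 vehicle counts stood against 2555 nutlin counts, a ratio of 138 after division by library size (95% interval 87.4 to 234, counting error only).

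PURPL, which is known to hold down p53 through MYBBP1A, was the most abundant of the 4 in both conditions. Its estimated counts in the vehicle samples were 438 at the lowest, 595 at the median and 855 at the highest. In the nutlin samples they were 5478, 6087 and 6760. The nutlin samples were thus all several times above the vehicle samples, and lay within a narrow range. Mean CPM were 40.8 ± 6.21 and 392 ± 18.7 (SD, n = 10), a 9.58-fold difference with an LFC of 3.26 ± 0.065 (SE; edgeR adjusted p = 1.22e-26).

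LINC-PINT, the transcript of the p53-induced locus that interacts with Polycomb repressive complex 2, changed least. Estimated counts were 55.1 at the lowest, 83.4 at the median and 103 at the highest in the vehicle samples, and 123, 149 and 182 in the nutlin samples. The gap between the conditions was small relative to the range within them, but no samples overlapped. The means were 5.30 ± 0.787 and 9.59 ± 1.03 CPM (SD, n = 10), with an LFC of 0.85 ± 0.084 (SE; edgeR adjusted p = 3.74e-10), or 1.81-fold.

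PANDAR, which is known to bind the transcription factor NF-YA and to limit apoptosis, was at the limit of detection. Of the vehicle libraries 9 of 10 had no PANDAR count, and replicate 4 had 1.01. The nutlin libraries had 1.34 at the lowest, 7.65 at the median and 16.2 at the highest, with replicate 6 the lowest and replicate 7 the highest. Because nutlin replicate 6 was below vehicle replicate 4 after rounding and scaling (0.0617 and 0.0710 CPM), nutlin was higher in 99 of the 100 pairs of samples and the conditions overlapped. The LFC of 5.18 ± 0.559 (SE; edgeR adjusted p = 2.22e-09) rests on 1 rounded vehicle count against 82 nutlin counts, a ratio of 79.9 (95% interval 14.0 to 3200, counting error only). Without vehicle replicate 4, PANDAR had no vehicle count and was not tested, which left 3 of the 4 lncRNAs called.

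**Figure D1:**
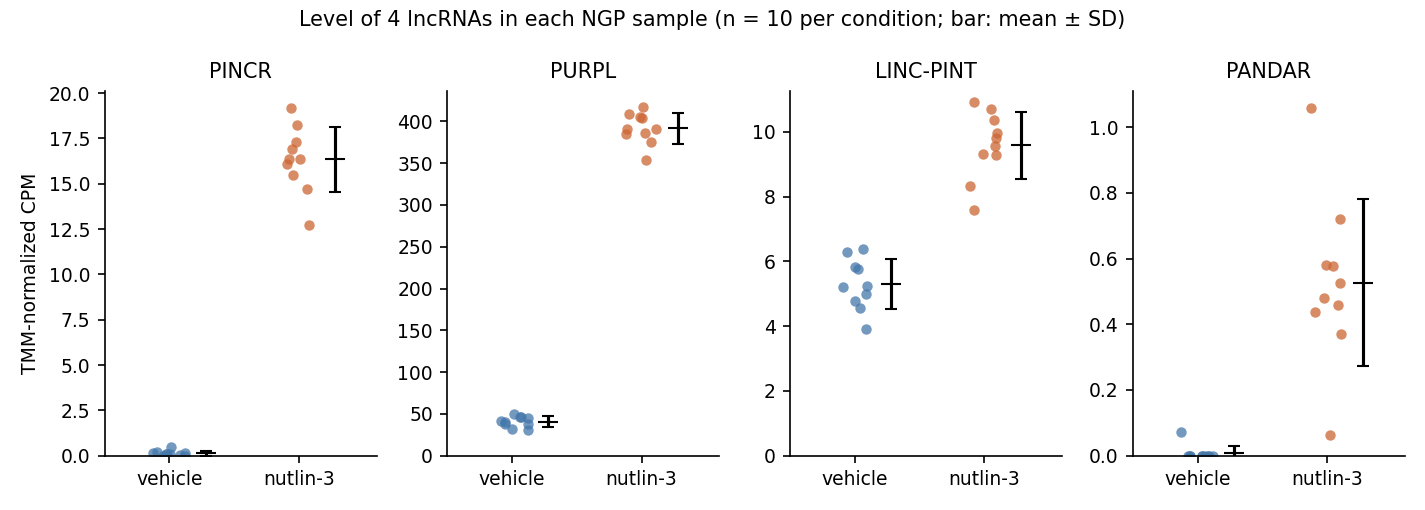
Level of the 4 lncRNAs in each sample, in TMM-normalized CPM on an axis of its own for each gene, starting at 0. Points are samples, and bars give the mean and SD of 10 samples per condition. PINCR, PURPL and LINC-PINT show no overlap of the conditions, and PANDAR has 9 vehicle samples at 0 and 1 nutlin sample at 0.0617 CPM.

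Most of the PANDAR sequence is not its own. LAP3P2, a processed pseudogene on the opposite strand of the same stretch of chromosome 6, holds 86.72% of the 31-base words of PANDAR-201, and LAP3, the aminopeptidase gene it was copied from, holds 21.61%. Only 168 words (11.38%) occur in no other gene. LAP3P2 itself had at most 2 counts in a vehicle library and 0 to 7.05, with a median of 2.56, in the nutlin libraries. LAP3 went the other way, from 56.4 ± 3.66 to 35.0 ± 3.12 CPM (SD, n = 10; LFC −0.69, edgeR adjusted p = 1.68e-13). Whether the authors' kallisto runs used the strand of the reads is not given in the sources used here, so that counts of PANDAR and LAP3P2 are uncertain as to which strand they came from.

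Among the 10346 lncRNAs tested, PINCR ranked 4 by LFC, PANDAR 26, PURPL 177 and LINC-PINT 3401. Restricted to the 2371 lncRNAs with a mean of at least 1 CPM, PINCR ranked 4, PURPL 51 and LINC-PINT 537. PANDAR, at 0.267 CPM, is not among these, and 16 of them had a higher LFC than PANDAR. LINC02303 (LFC 7.42) and LINC02051 (7.20) stood just above PINCR and LINC01376 (6.80) close below it. PURPL was followed by LINC00336 (3.25) and LINC01866 (3.24), which had means below 1 CPM against 216 CPM for PURPL. The median LFC of all lncRNAs tested was 0.50, which is below that of LINC-PINT.

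**Figure D2:**
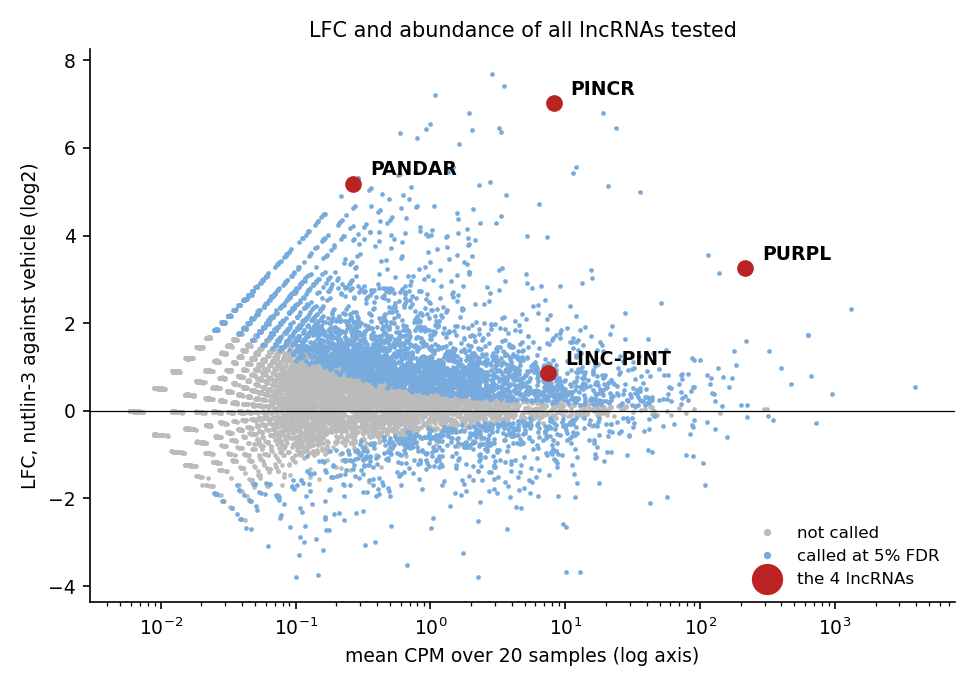
LFC of nutlin against vehicle (vertical axis, log2) against the mean CPM over 20 samples (horizontal log axis) for the 10346 lncRNAs tested, grey where not called and blue where called at 5% FDR, with the 4 lncRNAs in red. PURPL combines a high level (216 CPM) with an LFC of 3.26, PINCR lies near the top, PANDAR has few counts, and LINC-PINT is within the cloud of called lncRNAs.

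Levels were compared between the 4 genes in TPM, which is scaled by transcript length. Mean TPM in the vehicle samples were 45.8 ± 9.05 for PURPL, 2.97 ± 0.566 for LINC-PINT, 0.0626 ± 0.0672 for PINCR and 0.00565 ± 0.0179 for PANDAR (SD, n = 10). PINCR was above PANDAR in 8 of 10 vehicle samples and their ranges overlapped, whereas the other neighbours in this order were apart in all samples. After nutlin the means were 452 ± 37.1 for PURPL, 8.11 ± 0.908 for PINCR, 6.65 ± 1.06 for LINC-PINT and 0.409 ± 0.197 for PANDAR. PINCR had thus moved from a level far under LINC-PINT to one slightly over it, in 9 of 10 samples and with overlapping ranges.

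PURPL was 75th of the 10346 lncRNAs by mean TPM in the vehicle samples and 14th in the nutlin samples. It took 0.147% ± 0.0235 of all lncRNA counts in the vehicle samples and 0.975% ± 0.0581 in the nutlin samples (SD, n = 10). The corresponding ranks were 8119 and 579 for PINCR, 1223 and 700 for LINC-PINT, and 10220 and 5390 for PANDAR.

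The responses of the 4 lncRNAs were compared with each other by the log2 ratio of 2 members within a sample. Apart from the pseudocount that is added, such a ratio does not depend on the scaling of the libraries. TPM with a pseudocount of 0.1 was used, and the size of a difference that involves PINCR or PANDAR depends on it, with a two-sided permutation test on 10 against 10 samples and adjustment over the 6 pairs. The smallest unadjusted p that 100000 resamples can give in this test is 2e-05. PINCR responded more than PURPL by 2.42 ± 0.190 (SE; permutation adjusted p = 6e-05) and more than LINC-PINT by 4.59 ± 0.193 (9e-05) on the log2 scale. Against PANDAR the difference was 3.57 ± 0.257 (6e-05) towards PINCR. PURPL responded more than LINC-PINT by 2.18 ± 0.109 (permutation adjusted p = 8e-05). In each of these 4 comparisons the ratios of the conditions did not overlap, so that their p-values differ only by the random draws of the resampling. With a pseudocount of 0.01 TPM the difference was 4.03 for PINCR against PURPL, 6.18 against LINC-PINT and 2.44 against PANDAR, and on estimated counts it was 3.42, 5.84 and 3.77. PANDAR was at 0 in 9 of 10 vehicle libraries, so that the pseudocount limits how large its response can be. In summed counts the 95% interval of its ratio, 14.0 to 3200, took in that of PINCR, 87.4 to 234. The count ratios thus do not order PINCR and PANDAR. LINC-PINT responded less than PANDAR, with a difference of −1.03 ± 0.247 (permutation adjusted p = 0.00048) and overlapping samples. This difference was −3.74 with the pseudocount of 0.01 TPM and −2.08 on estimated counts.

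PURPL and PANDAR could not be ordered. The difference was 1.15 ± 0.224 towards PURPL with the pseudocount of 0.1 TPM (SE; permutation adjusted p = 0.00012). With a pseudocount of 0.01 TPM it was −1.59, towards PANDAR (permutation adjusted p = 0.0015), and on estimated counts it was 0.35 (permutation adjusted p = 0.26).

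At the level of single transcripts, 13 of the 19 were called higher and 0 lower after nutlin (edgeR, 5% FDR), where 12.1% of the 132618 transcripts tested were called higher. The 13 were PINCR-201, PANDAR-201, all 6 of PURPL and 5 of the 11 of LINC-PINT. In 8 of the 19 every nutlin sample was above every vehicle sample, against 3.95% of all transcripts tested. Assignment among overlapping transcripts is an estimate by kallisto, and its error is not in the files.

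PURPL-204 carried most PURPL counts. It had 233 estimated counts at the lowest, 326 at the median and 493 at the highest in the vehicle samples, and 3075, 3381 and 3760 in the nutlin samples, with an LFC of 3.23 ± 0.094 (SE; edgeR adjusted p = 2.67e-17). The conditions did not overlap in any of the 6 PURPL transcripts. PURPL-205 changed more, from a median of 56.3 to 744 (LFC 3.69 ± 0.140), and PURPL-203 less, from 84.3 to 624 (LFC 2.79 ± 0.085). PURPL-206, which had no counts in 3 of the vehicle libraries, had the highest LFC of the 6 (4.41 ± 0.471), and PURPL-201 the lowest (2.43 ± 0.288). PURPL-202 lay between them (3.32 ± 0.099).

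The transcript make-up of PURPL differed a little between the conditions. PURPL-203 fell from 14.3% ± 3.06 to 10.2% ± 0.722 of the gene's counts (SD, n = 10; permutation adjusted p = 0.0012 over 7 transcripts), with samples of both conditions between 10.4% and 11.6%. PURPL-205 rose from 9.10% ± 1.71 to 12.5% ± 0.800 (permutation adjusted p = 0.00014), and as a share of TPM from 22.0% ± 3.74 to 28.8% ± 1.5 (0.00028). PURPL-204 made up 56.3% ± 2.81 and 55.6% ± 0.942 (permutation adjusted p = 0.51), and PURPL-202 17.8% ± 1.39 and 18.7% ± 1.01 (permutation adjusted p = 0.21). All of these transcripts share the same start region.

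The transcripts of LINC-PINT responded unequally. LINC-PINT-206, the longest at 6411 bases, begins inside the gene at position 130913310 and had 24.3 estimated counts at the lowest, 37.1 at the median and 46.4 at the highest in the vehicle samples. In the nutlin samples it had 41.5, 48.8 and 56.2, so that the conditions overlapped, with an LFC of 0.40 ± 0.125 (SE; edgeR adjusted p = 0.024). LINC-PINT-211, of 3505 bases, begins at the outer end at position 131110176. It had 22.3, 29.6 and 43.2 in the vehicle samples and 46.4, 60.2 and 85.2 in the nutlin samples, without overlap and with an LFC of 0.96 ± 0.134 (edgeR adjusted p = 7.35e-06).

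The call of LINC-PINT-206 did not hold at 1% FDR, nor did those of LINC-PINT-204 (LFC 2.38 ± 0.824) and LINC-PINT-205 (1.35 ± 0.475). LINC-PINT-207, which begins at position 131107030, had counts in 1 of 10 vehicle libraries and in all nutlin libraries (LFC 3.61 ± 0.742, edgeR adjusted p = 0.00071). LINC-PINT-202, which shares the inner start region with LINC-PINT-206, was not called, with medians of 3.23 and 4.98 counts and an LFC of 0.29 ± 0.416. LINC-PINT-203 (2.47 ± 0.962) and LINC-PINT-208 (1.32 ± 0.574) were not called either. LINC-PINT-201, LINC-PINT-209 and LINC-PINT-210 had means below 1 count per sample in both conditions.

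**Figure D3:**
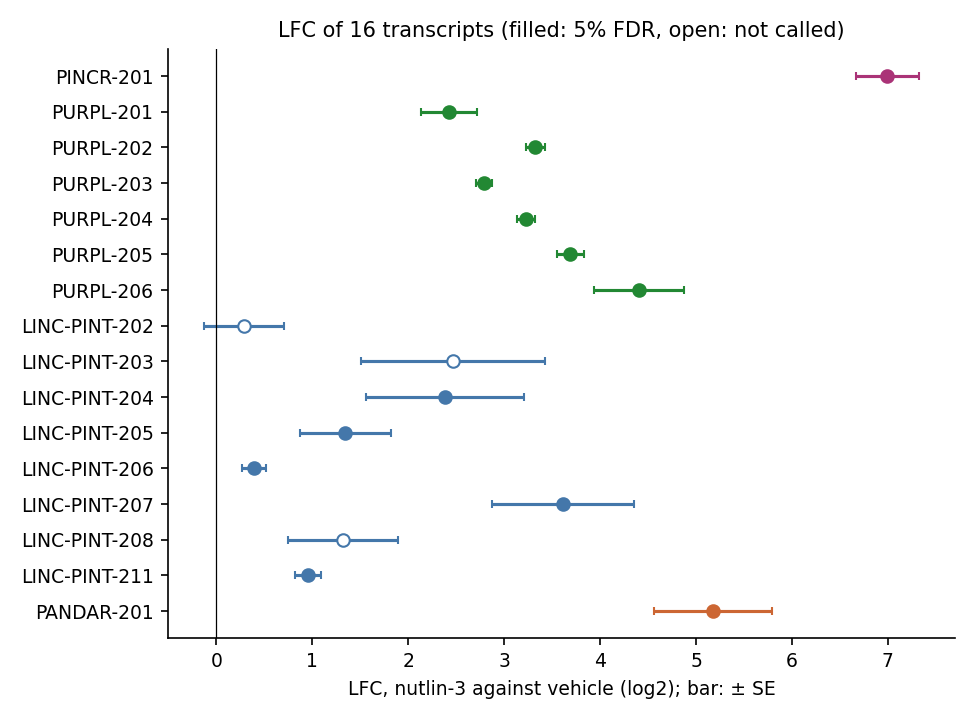
LFC of nutlin against vehicle (horizontal axis, log2) with its SE for the 16 transcripts with a mean of at least 1 estimated count per sample in either condition, coloured by gene. Filled points were called at 5% FDR and open points were not. The PURPL transcripts lie between 2.43 and 4.41, and LINC-PINT-206 has the lowest LFC of the called transcripts, at 0.40.

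As a share of LINC-PINT counts, LINC-PINT-206 went from 45.3% ± 3.93 to 33.3% ± 2.66 (SD, n = 10; permutation adjusted p = 0.00014). The lowest vehicle sample, at 38.0%, was just under the highest nutlin sample, at 38.6%, and all the others were apart. As a share of TPM, which is scaled by length, it went from 13.7% ± 2.18 to 8.00% ± 1.43 (permutation adjusted p = 0.00028). LINC-PINT-211 made up 38.3% ± 5.04 and 41.0% ± 3.44 (permutation adjusted p = 0.23), and LINC-PINT-205 5.60% ± 3.79 and 8.19% ± 4.70 (permutation adjusted p = 0.23). In a grouping by first base that was made after the values were seen, the 3 transcripts that begin at the inner start summed to 2.46 ± 0.413 CPM in the vehicle samples and 3.21 ± 0.348 in the nutlin samples, 1.31 times as much. The 6 that begin at the outer end summed to 2.25 ± 0.419 and 5.15 ± 0.867, or 2.29 times. The grouping is a description and was given no test.

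**Figure D4:**
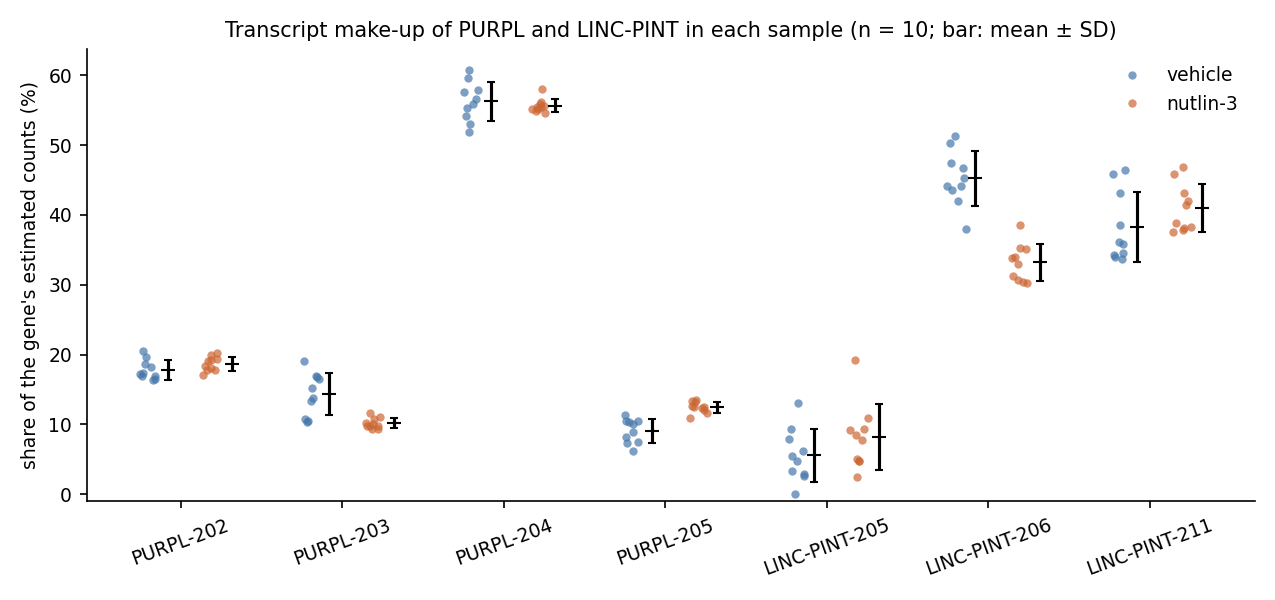
Share of the gene's estimated counts (vertical axis, percent) on the transcripts of PURPL and LINC-PINT with a mean share of at least 5%, in each vehicle sample (blue) and nutlin sample (orange). Bars give the mean and SD of 10 samples. LINC-PINT-206 falls from 45.3% to 33.3%, PURPL-203 from 14.3% to 10.2%, and PURPL-205 rises from 9.10% to 12.5%.

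The coding targets of p53 were looked at beside the lncRNAs, as a list of 25 genes. The list was chosen with earlier results of these data known, so that its counts describe it and do not test it. All 25 were called higher after nutlin, where 32.3% of all genes tested were called higher. The median LFC was 3.25, against 0.19 over all genes tested. In none of the 25 did the conditions overlap, but the share of all genes without overlap was not computed. GDF15, a stress-induced cytokine, had the highest (8.61 ± 0.138). FAS and TNFRSF10B, which are death receptors, had LFCs of 5.80 ± 0.171 and 4.55 ± 0.088. CDKN1A, the inhibitor of cyclin-dependent kinases next to PANDAR, had 5.68 ± 0.145, with means of 32.8 and 1679 CPM. BBC3, a pro-apoptotic BCL2 family member, had 5.42 ± 0.101, and MDM2, the target of the drug and itself a p53 target, 4.50 ± 0.070. The LFC of PINCR was thus above that of every coding target listed but GDF15, and that of PURPL was close to the median of the list.

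Of 8 other lncRNAs linked to p53, 6 were tested and 5 were called higher, where 32.0% of all lncRNAs tested were. These 8 were also chosen with earlier results of these data known, so that the counts are a description. The median LFC of the 6 was 1.84, and 5 were called. The 5 called were MIR34AHG, the host of a p53-induced microRNA (3.55 ± 0.085), TP53TG1 (2.92 ± 0.077), MEG3, a maternally expressed imprinted lncRNA (2.32 ± 0.055), NEAT1, the scaffold of paraspeckles (1.36 ± 0.045), and GAS5, a host of small nucleolar RNAs (0.97 ± 0.055). LINC-ROR was not called (0.73 ± 0.373, edgeR adjusted p = 0.095) at means of 0.190 and 0.322 CPM. TP53COR1 and DINOL were not analysed here. PURPL was thus close to MIR34AHG in LFC, and at a mean of 392 CPM after nutlin it was below MEG3, at 2180 CPM, GAS5, at 524 CPM, and NEAT1, at 463 CPM, as counts that are not scaled by length.

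The genes that the literature ties to the 4 lncRNAs as partners or targets moved in both directions. Of 19 such genes, 3 of which (BTG2, RRM2B and FAS) are also in the list of coding targets, 6 were called higher and 12 lower, where 32.3% of all genes tested were called higher and 26.5% lower, and the median LFC was −0.35. This list too was chosen with earlier results of these data known. For PINCR, its protein partner MATR3 fell (LFC −0.79 ± 0.039), whereas the targets BTG2 (3.74 ± 0.048), RRM2B (3.85 ± 0.074) and GPX1 (0.79 ± 0.063) rose. For PURPL, MYBBP1A was not called (0.06 ± 0.039, edgeR adjusted p = 0.17), with 157 ± 8.15 and 164 ± 11.5 CPM (SD, n = 10), and ELAVL1, an RNA-binding protein, fell by 0.55. For LINC-PINT, all 3 core subunits of Polycomb repressive complex 2 fell, EZH2 with an LFC of −1.61 ± 0.046, SUZ12 with −1.16 ± 0.061 and EED with −0.35 ± 0.056.

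For PANDAR, the partners NFYB (LFC −0.99 ± 0.061), NFYA (−0.28 ± 0.033), NFYC (−0.19 ± 0.040), HNRNPU (−0.80 ± 0.030) and BMI1 (−0.94 ± 0.080) all fell. Its reported apoptotic targets were split. FAS (5.80) and PIDD1, an adaptor of caspase activation (4.12 ± 0.064), rose with PANDAR, BIK rose from a low level (1.07 ± 0.326, edgeR adjusted p = 0.0057), and APAF1, the core of the apoptosome, fell (−0.50 ± 0.065). CCNB1, the cyclin of mitotic entry, fell the most of the 19 (−3.06 ± 0.062), from 317 ± 32.0 to 37.9 ± 4.07 CPM (SD, n = 10).

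**Figure D5:**
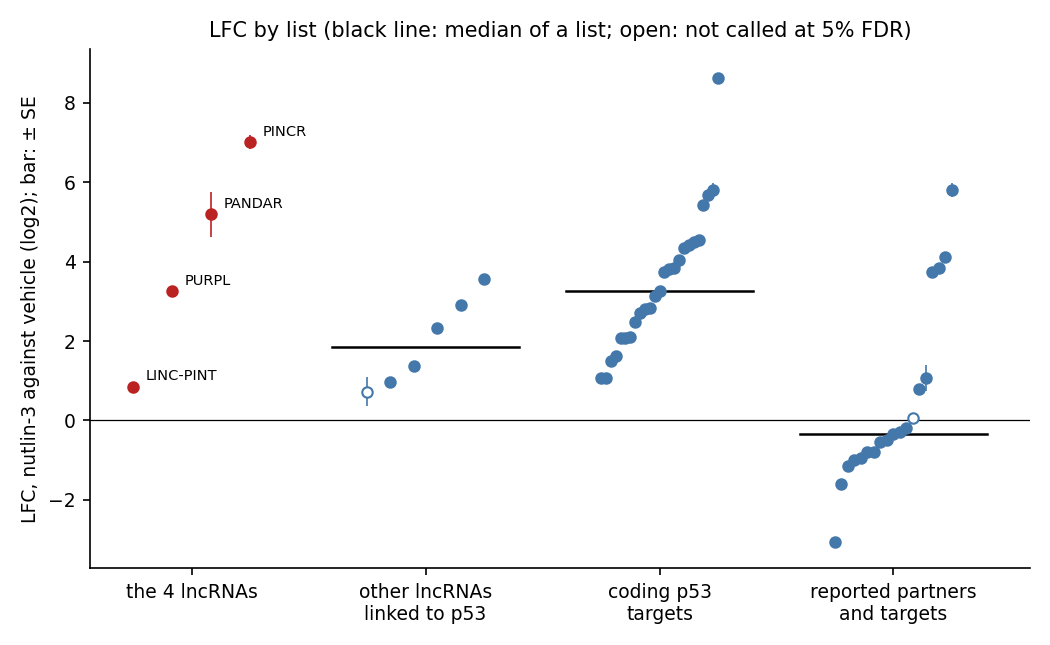
LFC of nutlin against vehicle (vertical axis, log2) with its SE for the 4 lncRNAs (red) and the genes of 3 lists (blue), with the median of each list as a black line and open points for genes not called at 5% FDR. All 25 coding targets lie above 0, while 12 of the 19 partners and targets were called lower.

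The genomic neighbours of the lncRNAs differed in their response. Next to PANDAR, CDKN1A rose 51.1-fold, and SRSF3, a splicing factor 68.0 kb on the other side, fell (LFC −0.84 ± 0.039). For LINC-PINT, the nearest coding gene upstream of its outer end apart from the overlapping MKLN1 was PODXL, a sialomucin 390.1 kb away, which rose (LFC 2.85 ± 0.052) from 9.57 ± 1.07 to 68.8 ± 3.26 CPM (SD, n = 10). MKLN1, whose start overlaps the outer start of LINC-PINT on the opposite strand, had an LFC of 0.17 ± 0.068 (edgeR adjusted p = 0.030). LINC00513, which overlaps LINC-PINT on the opposite strand, had an LFC of 0.84 ± 0.250 at means of 0.381 and 0.700 CPM.

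PINCR and PURPL lie in wide intergenic regions. The nearest coding gene after PINCR, MAOA, is 428.3 kb away and was not called (LFC 0.07 ± 0.052, edgeR adjusted p = 0.24), and PPP1R2C on the other side had at most 1 count in a library. For PURPL, the cadherin gene CDH9, 96.6 kb away, was not called at a median of 1 and 2.5 counts (LFC 0.90 ± 0.537, edgeR adjusted p = 0.16). CDH6, on the other side, is 3695.8 kb away and fell by 0.50 on the log2 scale. KLF14, 57.1 kb from LINC-PINT, had at most 1 count in a library.

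The genes whose levels followed the 4 lncRNAs most closely over the 20 samples were looked up by Pearson's r of log2(CPM + 1), as a description. All samples share the contrast between the conditions, which dominates such a correlation, and only genes averaging 1 CPM or more were admitted. PURPL was most like MDM2, ZMAT3 and TP53INP1 (r = 0.997 for each), which are coding targets of p53. Within the conditions the r of PURPL with MDM2 was 0.661 with vehicle and 0.736 with nutlin (n = 10 each), with ZMAT3 0.830 and 0.703, and with TP53INP1 0.800 and 0.620.

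PINCR was most like IL22RA1, FOXI3 and NUPR1 (r = 0.998 for each over 20 samples), with r between 0.439 and 0.688 in the vehicle samples and between 0.672 and 0.854 in the nutlin samples. The vehicle values of r rest on 18 PINCR counts in all. LINC-PINT was most like CALCOCO1 (0.962), CDHR1 (0.959) and VWA5B2 (0.957). Within the conditions these r were 0.829, 0.604 and 0.619 with vehicle and 0.469, 0.813 and 0.760 with nutlin. PANDAR was most like MACO1 (0.929), NPC1 (0.926) and ZKSCAN2 (0.920), whose LFCs of 0.19, 0.58 and 0.42 were far below that of PANDAR. Within the conditions these r were 0.666, 0.249 and −0.248 with vehicle and 0.736, 0.734 and 0.761 with nutlin. PANDAR was at 0 in 9 of the vehicle libraries. Ranked by Spearman's rho, the first 3 genes of each lncRNA were others, with 0 shared.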

How the data were processed

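RNA-seq of 10 vehicle and 10 nutlin samples of NGP cells was used, and the labels gave each sample's condition and replicate number. Reads were pseudoaligned by the authors with kallisto v0.42.4 to GRCh38 transcripts of Ensembl release 85. They deposited, per transcript, the estimated counts (read pairs, not normalized), the TPM values (estimated counts scaled by effective length and library size) and the transcript lengths in bases. Whether strand was used in the quantification is not given in the sources used here.

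Of the 198968 transcripts, 191106 (96.05%) were matched to genes by identifier with GENCODE 44, while 7862 had no match. Gene counts were the rounded sums over transcripts. The mRNA and lncRNA genes with 1 or more counts in both conditions were tested with the quasi-likelihood F-test of edgeR 4.0.16 (R 4.3.3), with TMM normalization and no term but the condition. Calls were made at 5% FDR after Benjamini-Hochberg adjustment over all genes tested. Transcripts were tested likewise over all 132618 tested. The SE of an LFC was the LFC divided by the square root of F. CPM values use TMM library sizes. Transcript shares and ratios between 2 genes were compared by two-sided permutation tests with 100000 resamples (scipy 1.17.1). The 95% intervals of count ratios are exact and, with counts of read pairs and no molecular identifiers, cover counting error only. Total counts per sample ranged from 14455477 to 19532971. Sequences are from GENCODE 44 and, for promoters, from RefSeq, where PURPL and LINC-PINT matched. The figures were made with matplotlib 3.10.9.

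The 4 lncRNAs and the lists were chosen with earlier results of these data known. 1 further marker gene and 1 further transcript stretch are not reported here. Coding targets were named by rule, up to 6 with the highest absolute LFC among those called and averaging 1 CPM or more. All genes of the lists of other lncRNAs and of partners and targets were named. The neuroblastoma markers named were chosen after their values were seen, and all 10 markers of other cells were named. Other named genes were the nearest coding genes and overlapping genes, the 3 genes most like each lncRNA, and the lncRNAs next to it in rank, unless they have no symbol. Transcripts with a mean of at least 1 estimated count in either condition were described singly.

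The 2 conditions have 8 replicate numbers in common. Samples with the same number did not deviate together (mean r = 0.00256, highest 0.0797), so that the numbers were not taken as pairs. The alternatives were DESeq2 size factors, DESeq2 1.42.0, limma 3.58.1 with voom, filterByExpr, no filter, the replicate number as a block, an offset for effective length, 1% FDR, each sample left out, shares of TPM, other scales and pseudocounts, and Spearman's rho. A fit of the 16 samples of the block without the block term was added after seeing the data.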

Additional observations from a re-analysis of the deposited data

Results flagged for a closer look

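In 4 of the 22 groups of 10 samples looked at, 1 sample stood apart from the others by more than Dixon's criterion allows. The criterion gives about 1 in 20 by chance only for independent values with a normal distribution. Vehicle counts of PANDAR and PINCR are few, and shares of the same gene depend on each other. The 4 groups can therefore not be set against that rate. The PINCR level in vehicle replicate 11 was 0.488 CPM, against 0.199 CPM in the next highest vehicle sample. The PANDAR level in vehicle replicate 4 was 0.0710 CPM, against 0 in the other 9. The share of PURPL-204 in nutlin replicate 6 was 58.0%, against 56.1% in the next. The share of LINC-PINT-205 in nutlin replicate 11 was 19.3%, against 10.9% in the next. Whether any of these is technical was not tested.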

How the results depend on the processing

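All 4 lncRNAs kept their direction and call wherever they were tested. With DESeq2 size factors, DESeq2, limma voom, both other filters, the effective length offset and each sample left out, LFCs ranged from 6.86 to 7.46 for PINCR, 3.24 to 3.34 for PURPL, 0.83 to 1.07 for LINC-PINT and 3.72 to 5.33 for PANDAR, where 3.72 is from limma voom. PANDAR was removed by filterByExpr, and without vehicle replicate 4 it had no vehicle count. Leaving out 1 sample at a time gave 3 to 4 of the lncRNAs called, and LFCs of 6.86 to 7.46, 3.24 to 3.30, 0.83 to 0.91 and 5.02 to 5.33 in the order above. With the replicate block on 16 samples the LFCs were 7.17, 3.25, 0.84 and 5.01 and all 4 were called, but the numbers showed no pairing. Under this block 14276 genes were called, against 14992 in the same 16 samples without it.

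The share of LINC-PINT-211 changed sign on TPM, from 2.76 to −3.22 percentage points, with neither past the threshold. On the same scale the change was −5.68 points for LINC-PINT-206, against −12.0 on counts, and 6.79 for PURPL-205, against 3.37. The response of PURPL minus that of PANDAR was −1.59 with a pseudocount of 0.01 TPM, opposite to the 1.15 above, and 0.35 on estimated counts (permutation adjusted p = 0.26). LINC-PINT-204, LINC-PINT-205 and LINC-PINT-206 were not called at 1% FDR (edgeR adjusted p = 0.040, 0.045 and 0.024) nor with the block (0.30, 0.24 and 0.21). LINC-PINT-208 was called by DESeq2 (adjusted p = 0.044). The genes most like each lncRNA shared 0 of 3 with those by Spearman's rho. The cause of these changes was not tested. Depth limits PANDAR, PINCR in the vehicle samples and the LINC-PINT transcripts with few counts.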
